A study of Arabidopsis thaliana with 6 samples.

Results

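A set of 10 genes of the root hair programme, AT1G66470 (RHD6), AT1G27740 (RSL4), AT4G33880 (RSL2), AT1G12560 (EXPA7), AT1G62980 (EXPA18), AT1G12040 (LRX1), AT3G62680 (PRP3), AT5G49270 (COBL9), AT3G03050 (CSLD3) and AT5G51060 (RHD2), was followed in root meristems of Arabidopsis thaliana. They were chosen by locus identifier and are 10 of the 32678 loci in the count table. Reads were counted per gene in 3 libraries labelled Col0, the wild type, and 3 labelled papl1-1papl2 (cog1-6cdf4), written papl1 papl2 here, a double mutant of 2 genes for Dof zinc finger transcription factors. Seedlings of both labels were 5 days old and had grown on plates with 1% sucrose at 23 °C in long days, with no treatment that differed between them, and the meristems were cut out by hand. The protocols state that the best replicates by quality were sequenced, and they do not say whether replicates were separate batches of plants, so p-values measure the spread between these libraries.

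Root hairs are tubular outgrowths of cells in some of the cell files of the epidermis. RHD6 and its partner RSL1, basic helix-loop-helix (bHLH) factors, act early in the hair cell files. The related factors RSL2 and RSL4 act later and set how far a hair grows. The tip then extends by loosening and depositing wall: RHD2 (also RBOHC) makes reactive oxygen species at the tip, CSLD3 is a cellulose synthase-like protein, COBL9 is a membrane-anchored COBRA-like protein, LRX1 is an extensin with leucine-rich repeats, PRP3 is a proline-rich wall protein, and EXPA7 and EXPA18 are expansins, which loosen walls. Hairs emerge above the meristem, in the zone where cells mature.

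A promoter element known as the root hair element, bound by RSL4 and its relatives, has been described upstream of expansin and other hair genes. A simplified form of it, TGNNNNCACG or TGNNNNNCACG with N for any base, was searched on both strands in the 250 bases before the annotated start of each gene. It was found upstream of 5 of the 10 genes, EXPA7, EXPA18, LRX1, PRP3 and COBL9, and in 9.02% of the 27443 promoters of nuclear protein-coding genes. These 5 genes all encode wall or wall-associated proteins. No match lay in the window of RHD6, RSL4, RSL2, CSLD3 or RHD2, which says only that these letters are absent there. The G-box CACGTG, another bHLH target, was in the window of 0 of the 10 genes and of 6.49% of all promoters, and the looser E-box CANNTG was in 5 of 10 and in 55.3%. The G-box is a form of the E-box, and both read the same on either strand. EXPA7 and COBL9, which hold several root hair element matches, are shown in full as examples, in TAIR10.1 of RefSeq and in the direction of the gene, with the matches in capitals. EXPA7 lies on the plus strand, and the window is chr1:4276255-4276504. COBL9 lies on the minus strand, and the window is chr5:19974531-19974780.
EXPA7: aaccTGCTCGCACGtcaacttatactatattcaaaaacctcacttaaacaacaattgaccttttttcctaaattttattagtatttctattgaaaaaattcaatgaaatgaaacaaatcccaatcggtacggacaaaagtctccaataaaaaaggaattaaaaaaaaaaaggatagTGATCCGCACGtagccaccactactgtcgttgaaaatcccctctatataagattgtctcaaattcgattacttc
COBL9: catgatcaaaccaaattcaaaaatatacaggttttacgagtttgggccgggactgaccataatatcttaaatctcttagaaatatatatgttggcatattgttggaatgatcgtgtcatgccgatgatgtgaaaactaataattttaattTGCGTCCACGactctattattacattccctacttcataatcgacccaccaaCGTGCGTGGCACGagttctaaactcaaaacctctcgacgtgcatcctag
In EXPA7 the matches ended 237 and 64 bases before the start. In COBL9 a match ended 91 bases before the start, and a match on the gene's strand, ending 37 bases before it, overlapped one on the opposite strand.

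For the other 3 genes with the element, all on the plus strand, only the match and up to 10 bases on either side are shown, so that the element can be compared between genes. The EXPA18 site is at chr1:23331517-23331546, the LRX1 sites are at chr1:4069742-4069764 and chr1:4069891-4069920, and the PRP3 site is at chr3:23182547-23182577. In LRX1 and PRP3 the match is on the opposite strand, so the capitals show its reverse complement.
EXPA18: aaaacaaacaTGAACGCACGtccattactt
LRX1, distal: ggtCGTGCGTGCAggtttctctt
LRX1, proximal: cctctaggaaCGTGCGTCCAagtttgagga
PRP3: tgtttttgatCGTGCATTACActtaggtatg
These matches are a description of the sequence, and no binding was measured.

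**Figure D1:**
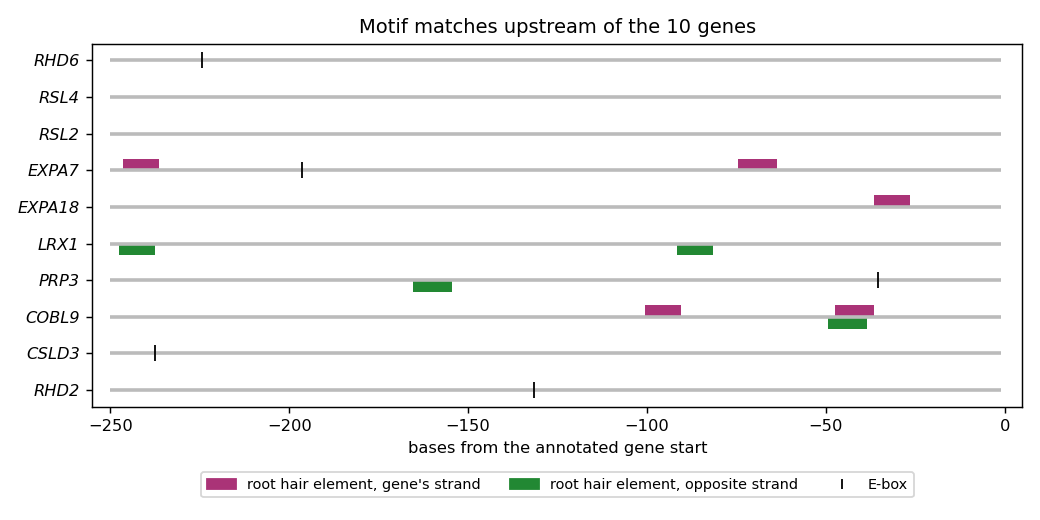
Positions of motif matches (x axis, bases from the annotated gene start) in the 250 bases upstream of the 10 genes, 1 line a gene. Blocks are the simplified root hair element on the gene's strand (above the line) or the opposite strand (below), ticks are E-boxes; the element lies upstream of EXPA7, EXPA18, LRX1, PRP3 and COBL9.

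The libraries held 17849704 to 20914576 counts, so that 3 counts, taken as the limit of detection, correspond to 0.143 to 0.168 CPM (counts per 1000000 of the library, scaled by trimmed mean of M-values), a limit that covers counting error only. All 8 meristem and stem cell niche markers were tested and lay between 20.4 CPM (PLT2) and 98.8 CPM (KNOLLE) in every library. The mutated loci, taken as AT1G29160 (COG1) and AT2G34140 (CDF4) from general knowledge, were not lower in the mutant: AT1G29160 had 11.5 ± 0.977 CPM under Col0 and rose to 19.5 ± 2.72 CPM under the mutant label (adjusted p = 0.0137 by edgeR), and AT2G34140 had 4.02 ± 0.484 and 5.99 ± 0.423 CPM (SD, n = 3 for each), adjusted p = 0.0952 by edgeR. Counts per gene cannot tell an intact from a disrupted transcript, so directions rest on the labels. Replicate 3 labelled papl1 papl2 stood apart from its label on the second principal component, which held 30.7% of the variance, at 34.2 against -28.0 and -17.7 for replicates 1 and 2.

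No member of the group passed the test between genotypes. In edgeR's quasi-likelihood test over 17720 genes, with Benjamini-Hochberg adjustment, 0 of the 8 members with enough counts to be tested were called at an adjusted p under 0.05, and 2.76% of all tested genes were. RSL2 and EXPA18 had too few counts. At an unadjusted p under 0.05 there was 1 member, RSL4, and DESeq2's Wald test called RSL4 alone, at an adjusted p of 0.0335. The median log2 fold change of the 8 was 0.41, with 7 above 0, and that of all tested genes was 0.00. Without replicate 3 labelled papl1 papl2 the median of the 8 was 0.81. In none of the 8 did the libraries of one label lie wholly above those of the other, which 21.5% of tested genes did. Most of the 8 spread widely over the 3 libraries labelled papl1 papl2, while RHD6 and CSLD3 spread less.

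RHD6, the early regulator, was well expressed under both labels. It stood at 31.2, 33.3 and 37.5 CPM in replicates 1 to 3 labelled Col0 and at 34.4, 30.8 and 24.3 CPM in the mutant libraries. The labels overlapped, and the lowest value was that of replicate 3 labelled papl1 papl2. RHD6 had a log2 fold change of -0.19 (SE 0.12, adjusted p = 0.518 by edgeR).

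RSL4 had 14, 12 and 9 counts in the libraries labelled Col0, which is 0.738, 0.595 and 0.429 CPM. The mutant-labelled libraries held 87, 58 and 5 counts, which is 4.16, 3.22 and 0.279 CPM. Replicates 1 and 2 labelled papl1 papl2 were thus above every Col0 library and replicate 3 was below every one. Over all 6 libraries the log2 fold change of RSL4 was 2.13 (SE 0.73), with an adjusted p of 0.194 by edgeR. Each library was left out in turn. Leaving out replicate 3 of the mutant gave RSL4 a log2 fold change of 2.65 (SE 0.30) at an adjusted p of 0.00052, so that 1 of the 8 genes was then called, against 6.48% of all genes tested in that fit. EXPA18, which also had enough counts to be tested in that fit, was not called (adjusted p = 0.291 by edgeR). In the 5 fits without another library RSL4 did not pass. Within the label, the CPM of RSL4 in replicate 1 was 14.9 times that in replicate 3 (95% exact interval of the ratio 6.15 to 47.0, counting error only).

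RSL2 was close to the limit of detection. It had 0, 0 and 2 counts in replicates 1 to 3 labelled Col0, and 9, 10 and 0 counts in those labelled papl1 papl2. The last 3 values are 0.431, 0.554 and 0 CPM, where 0 counts allow up to 0.206 CPM by the 95% exact interval. As with RSL4, the highest values were those of mutant replicates 1 and 2. Taking 3 counts for the 0 of replicate 3, they were 2.57 and 3.31 times its value. The lower 95% exact limits of the ratios to its 0 counts were 1.69 and 2.22, counting error only. With no filter on counts, RSL2 had an adjusted p of 0.290 by edgeR.

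The 2 expansin genes were low and uneven within both labels. EXPA7 had 3, 22 and 0 counts in the libraries labelled Col0 and 25, 39 and 0 in those labelled papl1 papl2, where the highest value, in replicate 2, was 2.16 CPM. EXPA18 had 2, 10 and 0 counts and 15, 9 and 0 counts. In both genes the Col0 library with most counts was replicate 2, and replicate 3 of each label had none. EXPA7 had a log2 fold change of 1.42 (SE 1.12, adjusted p = 0.602 by edgeR), which ranged from 0.58 to 3.78 as 1 library was left out, the highest without replicate 2 labelled Col0. EXPA18 was not tested in the fit of all 6 libraries. Without replicate 3 labelled papl1 papl2 its log2 fold change was 1.59 (SE 0.79) and it did not pass. Each overlaps a gene on the opposite strand, AT1G12570 and AT1G62978, and the use of strand in counting is not given in the sources used here, so their counts are uncertain.

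LRX1 and PRP3, the extensin with leucine-rich repeats and the proline-rich wall protein, were also low and uneven. LRX1 had 6, 17 and 3 counts in the libraries labelled Col0 and 20, 11 and 7 in those labelled papl1 papl2. PRP3 had 0, 12 and 1 counts and then 25, 11 and 0. Replicate 2 was again the highest Col0 library for both genes. The log2 fold changes were 0.61 (SE 0.60, adjusted p = 0.693 by edgeR) for LRX1 and 1.50 (SE 1.13, adjusted p = 0.584) for PRP3. Leaving out 1 library moved LRX1 between 0.18 and 1.52 and PRP3 between 0.49 and 4.31, in both genes highest without replicate 2 labelled Col0. The standard errors are as large as the LRX1 difference and most of the PRP3 difference, so these data do not resolve a change of that size.

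COBL9 varied more within the label papl1 papl2 than almost any tested gene. It stood at 4.32, 2.38 and 4.43 CPM in the libraries labelled Col0 and at 7.89, 4.66 and 0.168 CPM in the mutant ones. Replicates 1 and 2 of that label were above all Col0 libraries, and replicate 3, with 3 counts against 165 and 84, was below all of them. The ratio of replicate 1 to replicate 3 was 47.1 (95% exact interval 15.8 to 231). The log2 fold change over the 6 libraries was 0.21 (SE 0.72, adjusted p = 0.923 by edgeR), and its sign turned without replicate 1 labelled papl1 papl2, at -0.62, without replicate 2 labelled Col0, at -0.031, and with the replicate number as a block, at -0.12. Unlike the expansins, COBL9 was lowest of the Col0 libraries in replicate 2.

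RHD2, the tip oxidase, showed the same order at a higher level, where counting error is small. It was at 29.2, 25.5 and 28.7 CPM in the libraries labelled Col0 and at 49.5, 30.4 and 10.4 CPM in the mutant replicates 1 to 3. The Col0 libraries lay close together, with replicates 1 and 2 labelled papl1 papl2 above them and replicate 3 below. Replicate 1 was 4.77 times replicate 3 (95% exact interval 4.07 to 5.60). The log2 fold change of RHD2 was 0.12 (SE 0.40, adjusted p = 0.920 by edgeR), and without replicate 3 labelled papl1 papl2 it was 0.53 (SE 0.16) at an adjusted p of 0.0727, which did not pass. Its sign turned without replicate 1 of that label, at -0.45, and with the replicate number as a block, at -0.077.

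CSLD3 was the most abundant of the 10. It stood at 178, 185 and 202 CPM in the libraries labelled Col0 and at 215, 214 and 159 CPM in the mutant ones. Within the mutant label replicate 3 was again the lowest, as in RHD2 and COBL9. Replicates 1 and 2 could not be ordered, with 95% exact intervals of 209 to 222 and 207 to 221 CPM. The range was narrow, with replicate 1 at 1.35 times replicate 3 (95% exact interval 1.29 to 1.42). The log2 fold change of CSLD3 was 0.06 (SE 0.11, adjusted p = 0.852 by edgeR), and it was -0.013 and -0.0076 without replicates 1 and 2 labelled papl1 papl2. Of its stretches of 50 bases, 0.0977% also occur elsewhere in the genome, and none of those of the other 9 genes do.

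**Figure D2:**
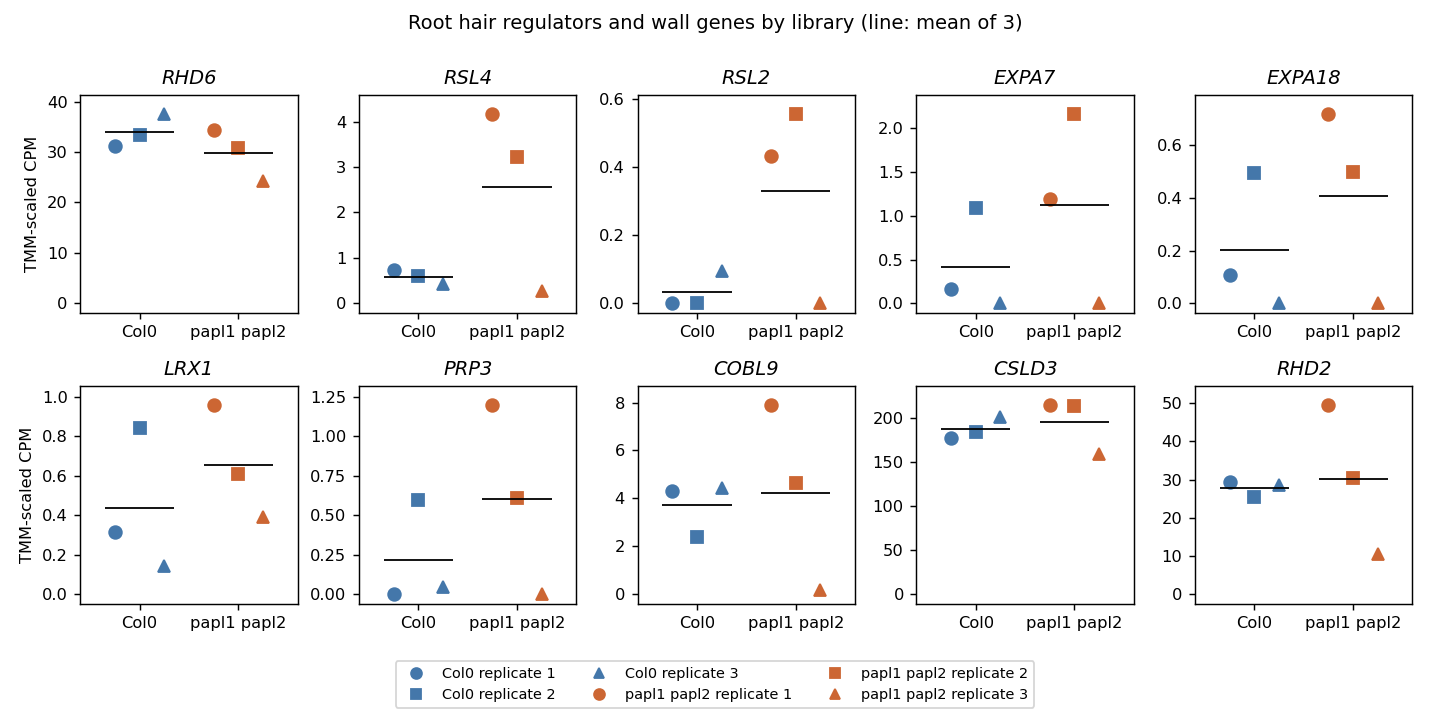
TMM-scaled CPM (y axis, linear, a scale of its own in each panel) of each of the 10 genes in the 3 libraries labelled Col0 (blue) and the 3 labelled papl1 papl2 (orange), 1 marker a library, with the mean of each label as a line. Replicate 3 labelled papl1 papl2 (orange triangle) is the lowest of its label in all 10 panels.

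Replicate 3 was the lowest library labelled papl1 papl2 in 10 of the 10 genes and in 8 of the 8 tested ones, where it was lowest in 38.1% of all tested genes. The pattern was noticed in the values, so it is a description. The genes differed in how far it fell short. On a log2 scale with a prior count of 2, replicate 3 minus the mean of replicates 1 and 2 had a median of -2.56 in the 8 genes, while its median over all tested genes was 0.01. For COBL9 the difference was -4.51, and 0.0339% of tested genes had a lower one. For EXPA7 it was -4.06, for RSL4 -3.30, for PRP3 -3.23 and for RHD2 -1.89, and 0.926% of tested genes were lower than RHD2. For RHD6 and CSLD3 the differences were -0.42 and -0.43, with 9.95% and 9.65% of tested genes lower, and for LRX1 it was -0.82. The library had 17849704 counts and the next lowest, replicate 2 of its label, 18041430. Replicate 3 had a count in 20444 genes, and replicates 1 and 2 of its label in 20929 and 20800. The part of depth or library quality in the pattern was not tested.

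The count of members without reads followed the same order. At 3 counts or fewer were 5 of the 10 genes in replicate 3 labelled papl1 papl2, 4 of them at 0, and 0 of the 10 in replicates 1 and 2. Among the libraries labelled Col0 the numbers were 4, 1 and 5 in replicates 1 to 3. Replicate 1 labelled papl1 papl2 was the highest of all 6 libraries for 7 genes and replicate 2 for 2 genes, RSL2 and EXPA7. RHD6 was highest in replicate 3 labelled Col0.

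The SD of log2 CPM within a label puts this spread beside that of other genes. In the libraries labelled papl1 papl2 it was 2.63 for COBL9, 2.38 for EXPA7, 1.91 for RSL4, 1.91 for PRP3 and 1.15 for RHD2, and the median over all tested genes was 0.12. COBL9 exceeded 99.96% of tested genes and RHD2 99.0%. In the libraries labelled Col0 the SD of RHD2 was 0.11 and that of RSL4 0.33, while EXPA7, PRP3 and LRX1 were at 1.79, 1.46 and 0.98, where replicate 2 stood above the others. Genes with few counts spread more from counting alone, which touches EXPA7, PRP3 and LRX1 in particular. With a prior count of 0.5 in place of 2, the SD of EXPA7 became 2.72 in Col0 and 3.49 in papl1 papl2, and that of PRP3 2.34 and 2.98. RHD6 and CSLD3 were at 0.13 and 0.09 in Col0 and at 0.25 and 0.25 in papl1 papl2.

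**Figure D3:**
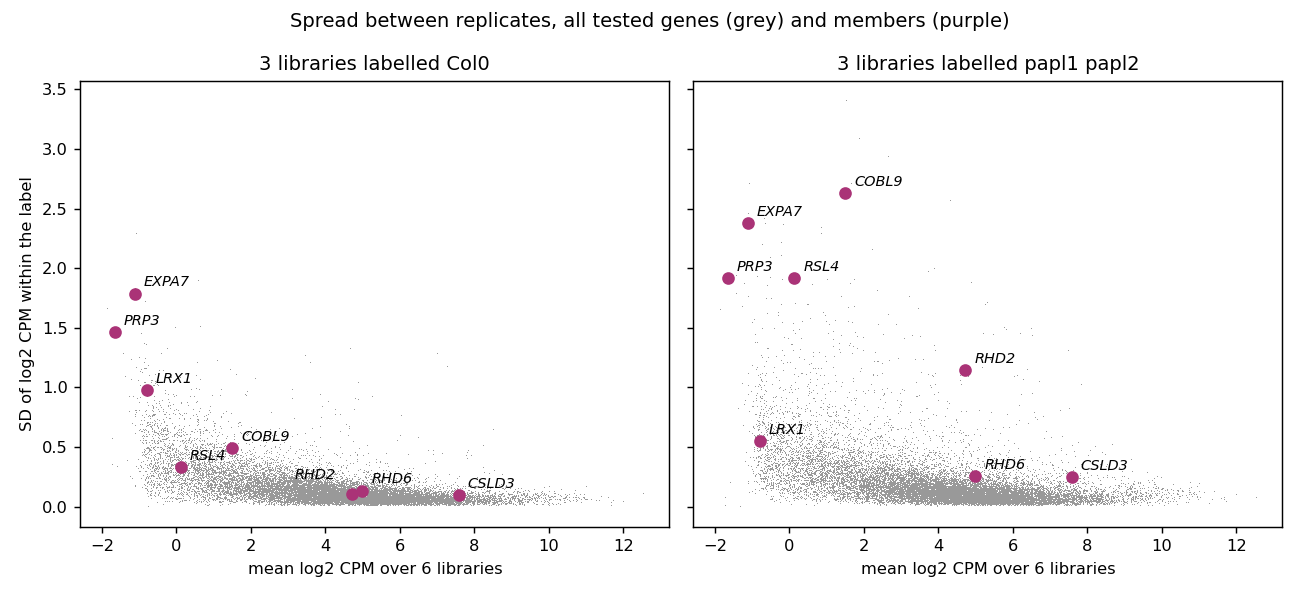
SD of log2 CPM over the 3 libraries of a label (y axis) against mean log2 CPM over all 6 (x axis), for every tested gene (grey) and the 8 tested members (purple), with Col0 on the left and papl1 papl2 on the right. On the right, COBL9 (2.63) and RHD2 (1.15) exceed 99.96% and 99.0% of tested genes. On the left they are at 0.49 and 0.11, above 96.3% and 52.9% of tested genes.

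**Figure D4:**
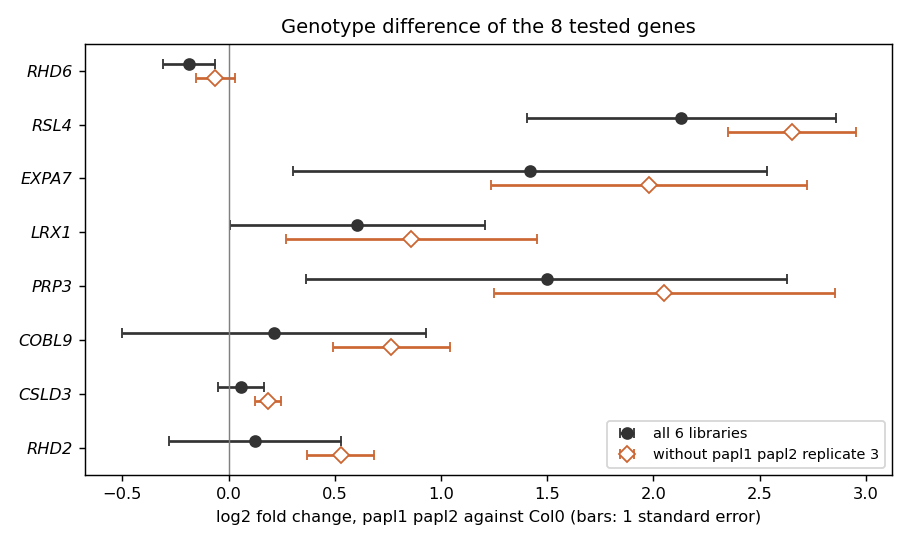
Log2 fold change of papl1 papl2 against Col0 (x axis, bars 1 standard error, edgeR) for the 8 tested genes, with all 6 libraries (filled circles) and without replicate 3 labelled papl1 papl2 (open diamonds). RSL4 moves from 2.13 to 2.65 with a standard error of 0.30 in place of 0.73, and RHD6 stays just below 0.

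Levels were compared between genes per kilobase of exon. In the libraries labelled Col0, CSLD3 was highest at 43.9 ± 2.85 CPM per kilobase, followed by RHD6 at 23.8 ± 2.25, RHD2 at 8.45 ± 0.615, COBL9 at 1.64 ± 0.510 and RSL4 at 0.439 ± 0.116 (SD, n = 3 for each). The ranges of these 5 did not overlap from one to the next. EXPA7 at 0.373 ± 0.528, PRP3 at 0.175 ± 0.271, LRX1 at 0.161 ± 0.136, EXPA18 at 0.160 ± 0.209 and RSL2 at 0.0230 ± 0.0399 CPM per kilobase overlapped their neighbours in the order. In the libraries labelled papl1 papl2 the means were 45.7 ± 7.44 for CSLD3, 20.9 ± 3.58 for RHD6 and 9.15 ± 5.95 for RHD2 (SD, n = 3 for each). There RSL4, at 1.91 ± 1.51, and COBL9, at 1.88 ± 1.72 CPM per kilobase, could not be ordered. The early regulator and CSLD3 were thus plentiful in these dissected tips. RSL2 was at 3 counts or fewer in 4 of the 6 libraries, EXPA7, EXPA18 and PRP3 in 3, and LRX1 and COBL9 in 1 each. For COBL9 that library was replicate 3 labelled papl1 papl2.

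Upstream of these genes, the patterning network decides which epidermal files make hairs. Of its 11 listed genes, all tested, 1 was called, and it was lower in papl1 papl2. EGL3, a bHLH factor that acts with WER and GL3 in the choice of non-hair fate, fell from 39.2 ± 1.22 to 29.1 ± 1.86 CPM (SD, n = 3 for each), a log2 fold change of -0.43 (SE 0.07, adjusted p = 0.0144 by edgeR). Its values did not overlap between labels, and replicate 3 labelled papl1 papl2, at 29.6 CPM, lay between the other 2 of its label. The call was lost without replicate 1 or 3 labelled Col0, at adjusted p of 0.0597 and 0.0763. ETC1 (log2 fold change -0.48, adjusted p = 0.129) and JKD (0.17, adjusted p = 0.178) came next and did not pass. ETC1, a small MYB protein, overlaps a gene on the opposite strand. The median log2 fold change of the patterning list was -0.07, and WER and GL2 were at 47.3 to 58.6 and 37.8 to 47.2 CPM, with replicate 3 labelled papl1 papl2 inside the range of the Col0 libraries for WER at 58.5 CPM. For GL2 that library was at 37.9 CPM, below the lowest Col0 value of 41.1 CPM.

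Of the 6 other RSL and LRL factors, 3 were tested and 0 called. RSL1, the partner of RHD6, was at 9.27, 10.4 and 12.0 CPM in Col0 and at 5.98, 8.15 and 10.2 CPM in papl1 papl2 (log2 fold change -0.39, adjusted p = 0.354 by edgeR). Its highest mutant value was in replicate 3, the reverse of the members. LRL2 and LRL1 had log2 fold changes of -0.17 and 0.04. Of 5 other transcription factors of hair growth 0 were called, with the smallest p for GTL1, a trihelix repressor of hair growth, at -0.31 (adjusted p = 0.209), then AT1G76880, annotated as a homeodomain-like protein, at -0.28, and ZFP5, a zinc finger factor, at -0.35. In all 5, replicate 3 was the lowest of its label.

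Among 15 genes of hair signalling and trafficking, 14 were tested and 1 was called. OXI1, a protein kinase that acts after reactive oxygen species in root hairs, was at 23.0, 22.1 and 24.3 CPM in the libraries labelled Col0 and at 40.6, 42.5 and 39.7 CPM in the mutant ones. All 3 mutant libraries lay above all 3 of the wild type, and replicate 3 was close to the others. OXI1 rose by 0.82 on the log2 scale (SE 0.07, adjusted p = 0.000762 by edgeR), and it passed in every alternative run. FER, a receptor kinase, and RHD4, a phosphoinositide phosphatase, had log2 fold changes of 0.26 and -0.19 and did not pass (adjusted p = 0.197 and 0.306). The list's median was 0.12. Without replicate 3 labelled papl1 papl2, OXI1, FER and SHV3 were called, at adjusted p of 0.000143, 0.0031 and 0.00501. SHV3, a membrane-anchored protein of wall organisation, was at 31.8, 31.8 and 16.7 CPM in replicates 1 to 3 of that label, but it overlaps a gene on the opposite strand.

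Of 12 other wall genes of hairs, 6 were tested and 0 called, with a median log2 fold change of 0.83. PRPL1, a proline-rich protein, had the smallest p and was at 0.263, 0.645 and 0.0476 CPM in Col0 and at 1.91, 1.22 and 0 CPM in papl1 papl2. Its log2 fold change was 1.73 (SE 0.99, adjusted p = 0.448 by edgeR), and 2.29 at an adjusted p of 0.0342 without replicate 3 labelled papl1 papl2. GH9C1, an endoglucanase, and AT4G26010, a peroxidase, had log2 fold changes of 1.16 and 0.67 with adjusted p of 0.647 and 0.667. Replicate 3 was the lowest of its label in all 6 tested genes. Their median SD of log2 CPM in that label was 1.48 and that of the 8 members 1.53, and their median difference of replicate 3 from the mean of replicates 1 and 2 was -2.55, beside -2.56 in the members. Of 16 genes of the ROOT HAIR SPECIFIC list, 6 were tested and 0 called, and RHS8, at 2.30, 2.00 and 0.0559 CPM in papl1 papl2, was called without replicate 3 (log2 fold change 1.61, adjusted p = 0.010). RHS2 and RHS13 had log2 fold changes of -0.56 and 0.48 over all 6 libraries and did not pass. Replicate 3 was the lowest library labelled papl1 papl2 in 4 of the 6 tested genes. RHS13 was highest there, at 4.78, 3.55 and 5.20 CPM in replicates 1 to 3 of that label. RHS19 was at 0.718, 1.33 and 0.726 CPM in those libraries.

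Markers of other cells and of maturation differed in their order across the mutant libraries, and some lists ran opposite to the members. Of 7 markers of the differentiating endodermis 1 was tested, MYB36, the regulator of Casparian strip formation, and it rose to 6.67 ± 0.792 CPM in the mutant, against 3.02 ± 0.389 CPM in Col0 (SD, n = 3 for each; log2 fold change 1.15, adjusted p = 0.00961 by edgeR), a call lost without replicate 1 or 3 labelled Col0, at adjusted p of 0.0534 and 0.0503. The defining CASP1 and CASP2 were at 0 in replicate 3 labelled papl1 papl2 and at 0.191 to 0.574 CPM in replicates 1 and 2, and replicate 3 was the lowest of its label in 6 of the 7. In the libraries labelled Col0, CASP1 had 0, 4 and 0 counts and CASP2 had 1, 3 and 0. The 0 of replicate 3 was thus within the Col0 range, and these genes were close to the limit of detection. The exception, CASP4, was at 0.239, 0.166 and 0.335 CPM in replicates 1 to 3 of that label, with replicate 3 the highest. In replicates 1 to 3 MYB36 was at 3.21, 3.27 and 2.57 CPM under Col0 and 7.56, 6.43 and 6.03 CPM under papl1 papl2. The summed level of the 7, most of it MYB36, was 3.14 to 4.86 CPM in the libraries labelled Col0 and 9.66, 8.43 and 6.59 CPM in the mutant ones. For 6 markers of maturing xylem, of which 5 were tested and 0 called, it was 17.1 to 20.2 CPM and then 27.1, 19.8 and 12.6 CPM. For 4 root cap markers, all tested and 0 called, it was 74.7 to 80.1 CPM and then 59.2, 64.5 and 77.1 CPM, and for the 8 meristem markers, 0 called, it was 379 to 401 CPM and then 372, 402 and 430 CPM. By these sums replicate 3 was the lowest of its label for the hair, xylem and endodermis lists and the highest for the root cap and meristem lists. Gene by gene, it was the lowest in 2 of the 8 meristem markers and 0 of the 4 root cap markers. KNOLLE, at 71.9, 82.6 and 98.8 CPM in replicates 1 to 3 of that label, made up part of the rise in the meristem sum. By its sum replicate 3 was also the highest for the patterning list, whose sums were 263, 264 and 273 CPM in replicates 1 to 3 of that label. WER alone stood at 47.8, 47.3 and 58.5 CPM there, a larger rise than that of the sum, so this order rests on WER. The median log2 difference of replicate 3 from the mean of replicates 1 and 2 was 0.0063 in that list. The part of these differences in the members' values was not tested. In these bulk samples fewer maturing cells and less RNA per cell cannot be told apart.

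**Figure D5:**
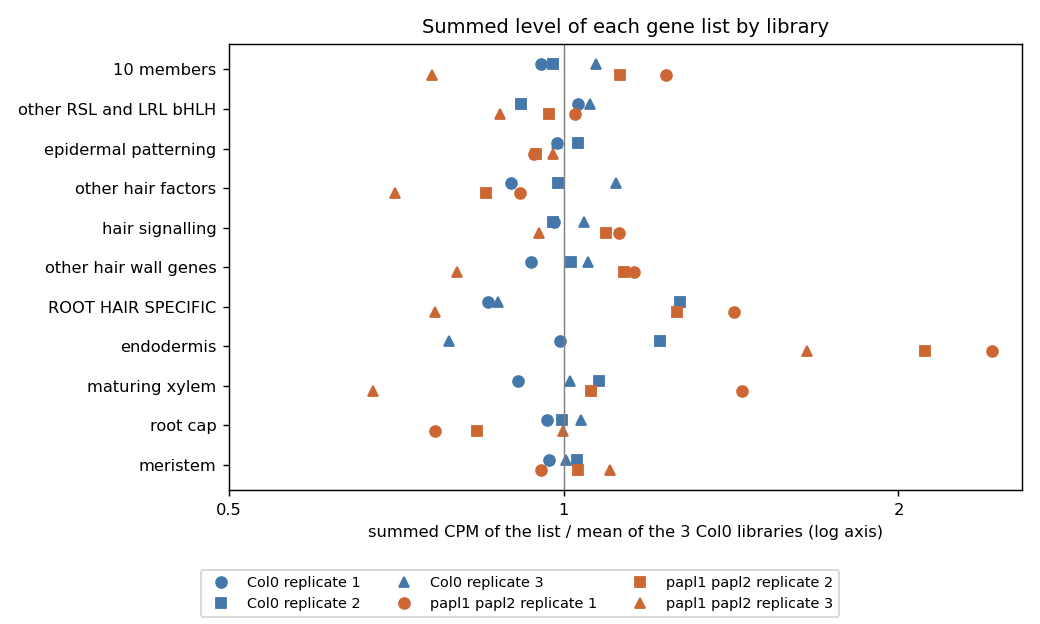
Summed CPM of each gene list in each library, divided by the mean of the 3 Col0 libraries (x axis, log scale), 1 marker a library. Replicate 3 labelled papl1 papl2 (orange triangle) is left of the other orange markers for the members (195 CPM summed, against 316 and 287) and the xylem list, and right of them for the root cap and meristem lists; CSLD3 makes up most of the members' sum.

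Genes near the median profile of the 8 tested members were sought by the root mean square (RMS) difference on log2 CPM centred over the 6 libraries. That median profile was -0.24, 0.01 and -0.48 in replicates 1 to 3 labelled Col0 and 1.20, 0.53 and -1.42 in those labelled papl1 papl2. Of 13733 other tested genes with at least 5 CPM on average, the nearest was AT3G51330, an aspartyl protease, at an RMS of 0.15, where the median gene was at 0.83. The members themselves lay between 0.35 (RHD2) and 1.21 (EXPA7) from that profile, with COBL9 at 1.01 and PRP3 at 0.88, so nearness to it is not nearness to every member. The nearest gene was followed by PIP1A, a plasma membrane aquaporin, at 0.18, AT5G46890, a lipid-transfer family protein, at 0.24, XTH30, a xyloglucan-modifying wall enzyme, at 0.26, AT2G39530 at 0.26, GSTU11, a glutathione transferase, at 0.26, AT5G40450 at 0.27, AT3G41768, annotated as a ribosomal RNA gene, at 0.29, AT4G01140 at 0.31 and the receptor-like kinase AT1G51850 at 0.31. PIP1A was at 32.8, 34.6 and 35.0 CPM in the libraries labelled Col0 and at 88.1, 55.6 and 12.8 CPM in the mutant ones. This likeness is over 6 libraries and rests mainly on the mutant ones, and PIP1A too did not pass between genotypes (log2 fold change 0.62, adjusted p = 0.605 by edgeR).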

How the data were processed

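The authors deposited raw counts of reads per gene, 1 column for each of 6 libraries, with no normalisation per the file headers and the whole-number values. The submitters' processing notes list TopHat2, HTSeq, DESeq, DESeq2 and the TAIR10 build, without versions or roles. The annotation, strand setting and treatment of multiply mapped reads are not given in the sources used here, and 0 columns were left unmatched. The members and all gene lists were chosen with earlier results of these data known.

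Symbols, products, exonic lengths and promoters came from the RefSeq annotation of TAIR10.1 by locus identifier, with 31912 of 32678 identifiers matched. The table holds no coordinates, so none was carried between builds. List genes that the annotation does not pair with a symbol are given by identifier. Among list genes named here, GL2, GL3, AT1G76880, GH9C1, AT4G26010, RHS19, CASP1, CESA8 and KNOLLE also overlap at least 1 gene on the opposite strand. Their counts are uncertain in the same way as those of EXPA7.

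Counts were filtered with edgeR 4.0.16 in R 4.3.3 (filterByExpr, minimum count 10, minimum total 15), leaving 17720 genes, scaled by TMM and compared by genotype alone, with no other covariate, in a single fit of the 6 libraries (glmQLFit, glmQLFTest). P-values were adjusted by Benjamini-Hochberg over all tested genes, with 0.05 as the threshold. Standard errors are the absolute log2 fold change over the square root of F. Log2 CPM used a prior count of 2. The code was tested on simulated data.

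Besides the 10 members, named genes were those called and the 3 smallest p-values in each list (the text gives most of them), and the 10 nearest profiles. SHV3, PRPL1, RHS8, RHS19, WER, GL2, CASP1, CASP2, CASP4, KNOLLE and the spread of replicate 3 were singled out after the values were seen. Pairs of libraries of one label differed by more than counting error (chi-square per degree of freedom 4.21 to 16.2). Each library was counted as 1 replicate, though such spread does not show that replicates were separate batches of plants. Same-numbered libraries shared only a number. Alternatives were DESeq2 1.42.0, other size factors, other filters, a replicate block and leaving out each library.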

Additional observations from a re-analysis of the deposited data

How the results depend on the processing

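The members' log2 fold changes kept their direction and side of the threshold in 82 of 91 alternatives. EXPA7 ranged from 0.58 to 3.78, LRX1 from 0.18 to 1.52 and PRP3 from 0.49 to 4.31 without 1 library. RSL4 was 2.12 and passed with the DESeq2 Wald test (adjusted p = 0.0335), and it ranged from 1.57 to 2.65 across the fits without 1 library, with adjusted p of 0.00052 to 0.466 over all its alternatives. The direction of COBL9 turned with the replicate block, at -0.12, and COBL9 ranged from -0.62 to 0.77 across the fits without 1 library. RHD2 was -0.077 with the replicate block and -0.45 to 0.53 without 1 library, and CSLD3 was -0.013 to 0.19. The number of members called was 1 with DESeq2, and 0 to 1 without 1 library. Of 32 recomputed spreads within a label, 29 stayed within 1.5 times their value. With a prior count of 0.5 the SD of EXPA7 in Col0 was 2.72 and that of PRP3 was 2.34 in Col0 and 2.98 in papl1 papl2. The number of all tested genes called was 489, with 259 under the replicate block and 144 (without replicate 1 labelled Col0) to 1164 (without replicate 3 labelled papl1 papl2). It was also outside 1.5 times the main number without replicate 2 labelled Col0 (276), replicate 3 labelled Col0 (155) and replicate 2 labelled papl1 papl2 (173). Across those fits the numbers called were 0 to 1 for patterning, 1 to 3 for signalling, 0 to 1 for the other wall genes, the ROOT HAIR SPECIFIC genes, the endodermis and the xylem, and 0 to 2 for the root cap (SMB and BRN2, both lower, without replicate 3 labelled papl1 papl2). The xylem gene was CESA8, which only then had enough counts. With a mean of at least 5 CPM required, 0 endodermis genes were called, since MYB36 was not tested. The cause of the other differences was not tested. Same-numbered libraries had correlations of deviations of -0.00913, -0.0601 and -0.107, and the block changed no call of a member. Counting error limits RSL2, EXPA7, EXPA18, LRX1 and PRP3, which had at most 39 counts in a library. It also limits COBL9 in replicate 3 labelled papl1 papl2, where it had 3 counts, and with it the ratios, differences and spread that rest on that value.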
